A study of Mus musculus with 2 samples.

Results

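The Sox transcription factors described here are 10 genes of subgroups B to F: *Sox2* (SoxB), *Sox4* and *Sox11* (SoxC), *Sox5*, *Sox6* and *Sox13* (SoxD), *Sox8*, *Sox9* and *Sox10* (SoxE), and *Sox17* (SoxF). They were chosen by name and not by a filter on their values, though with earlier results of these data known. They are 10 of the 23951 gene symbols found in both RNA-seq libraries. Each of the 10 genes had 1 row of its own in each library, and none shared a row with another gene. RNA-seq was carried out on optic nerves of mice at P12, postnatal day 12, with 1 library from control mice and 1 library from *Tcf7l2*ΔHMG mice, so the comparison has no replicate check and gives no p-value. The comparison asks which genes depend on the DNA-binding activity of Tcf7l2 while the nerve is being myelinated. The control genotype is labelled Tcf7l2 c/+; OLig1-cre, with 1 floxed *Tcf7l2* allele with the Cre transgene, and the mutant genotype is labelled Tcf7l2 c/c; OLig1-cre, with both alleles floxed. Both groups therefore carry Cre and a floxed allele, and neither is wild type. Cre under the control of *Olig1* is active in the oligodendrocyte (OL) lineage, whereas the libraries were made from total RNA of whole nerves, which also hold astrocytes, endothelial cells, microglia, fibroblasts and axons. Mice of both sexes on a mixed genetic background were used in the study, and the number of animals behind each library was not given in the sources used here. The floxed exon encodes the HMG DNA-binding box of Tcf7l2 (also called Tcf4) and its excision leaves an in-frame mRNA, so the gene-level value of *Tcf7l2* does not check the genotype.

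Sox proteins bind DNA through an HMG box related to that of SRY. Members of a subgroup have closely related boxes and can act in place of one another. TCF/LEF proteins such as Tcf7l2 have an HMG box of the same superfamily but act with β-catenin at the end of the Wnt pathway. In the OL lineage Sox10 is needed for terminal differentiation and activates myelin genes, Sox8 adds to its action, and Sox9 acts at specification and is later retained by astrocytes. Sox5 and Sox6 lack an activation domain of their own and restrain Sox9 and Sox10 in precursors. Sox2 and the SoxC proteins mark progenitors and immature cells, and Sox17 is best known for endothelial cells and endoderm and has also been linked to the exit of OL precursors from the cell cycle.

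The letters that both protein families recognize were looked up in front of the annotated transcript starts, since the libraries differ in the DNA-binding box of a TCF protein. RefSeq promoter windows on GRCm38.p6, trimmed to the 250 bases before each start, were matched for 7 of the 10 genes and made up 12 windows, of which 6 belonged to *Sox6*. *Sox9*, *Sox10* and *Sox17* were not matched. The TCF letters TCAAAG, or CTTTGA on the other strand, occurred in 3 of the 12 windows, all of them *Sox6* windows, and in 13.8% of the 32851 windows of all genes. The Sox letters AACAAT, or ATTGTT on the other strand, occurred in 1 of the 12 windows, again of *Sox6*, and in 9.42% of all windows. The stretches are shown on the minus strand, the strand of *Sox6*, with the matched letters in capitals. They are placed 225, 64, 207 and 108 bases before a start for TCAAAG and 236 and 225 bases before a start for AACAAT, in that order, the last 2 matches lying in the same stretch.
*Sox6* TCF letters, in a window that overlaps the *Sox6* gene and an exon of Gm45025, chr7:115995294-115995323: tttgaaatagtgCTTTGAgttgttgagggc
*Sox6* TCF letters, same window, chr7:115995133-115995162: acaatgatgataCTTTGAtctgaaaagaag
*Sox6* TCF letters, in a window that overlaps a *Sox6* exon, chr7:115846330-115846359: ctcctgtacgttTCAAAGtgtgaccttcca
*Sox6* TCF letters, within the *Sox6* gene body, chr7:115801700-115801729: aatttctctgttTCAAAGatttttattttt
*Sox6* Sox letters, on both strands, within the *Sox6* gene body, chr7:115824929-115824958: tttctttctttcAACAATgcttgATTGTTt
The window of *Sox8* is shown because, of the 10 genes, it was the only one past the fold change cutoff used below that had a window. It lies on the minus strand at chr17:25570687-25570936 and overlaps an exon of 2810468N07Rik. It has 65.6% G and C with 18 CG pairs, and neither set of letters was found in it.
*Sox8* window: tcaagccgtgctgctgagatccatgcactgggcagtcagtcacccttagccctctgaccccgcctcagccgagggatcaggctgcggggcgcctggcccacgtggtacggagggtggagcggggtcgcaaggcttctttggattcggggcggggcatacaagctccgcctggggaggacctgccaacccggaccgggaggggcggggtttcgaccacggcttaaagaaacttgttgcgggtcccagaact
A match is a description of the letters and not a binding site, and the RNA-seq files hold no binding data.

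Expression values are FPKM, fragment counts divided by the length of the transcript and by the number of mapped fragments, so that levels can be compared between genes. Cufflinks gives each value an interval that covers the estimation within 1 library and no variation between animals. In 7.26% of the named control rows and 8.64% of the named mutant rows the FPKM lay outside its own interval, and this was true of *Sox2* in both libraries and of *Sox10* in the mutant. Depth read from the interval bounds was 27624000 fragments for the control library against 39938000 fragments for the mutant library, at which 3 fragments on 1 kb give 0.109 and 0.0751 FPKM. Changes are given as log2 of the mutant FPKM plus 0.1 over the control FPKM plus 0.1, a scale that slightly understates differences of low genes, and a gene was counted as changed above a fold change of 1.5. Genes with at least 1 FPKM in at least 1 library and an accepted Cufflinks status were compared, 14199 in all, with a median log2 ratio of 0.05. All of the 10 Sox genes passed this filter. OL markers were high in both libraries (*Mbp*, encoding myelin basic protein, at 16990 and 11646 FPKM), as was the astrocyte marker *Gfap* (4059 and 4729 FPKM).

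Among the 10 Sox genes, *Sox10* and *Sox8* fell past the cutoff in the mutant library and none rose. The 10 genes had a median log2 ratio of −0.12 and ranged from −0.91 for *Sox10* to 0.34 for *Sox9*. Of all compared genes, 8.52% (1210) were lower in the mutant by more than 1.5-fold and 15.4% (2185) were higher, against 2 and 0 of the 10 Sox genes. Cufflinks intervals that did not overlap between libraries were found for 6 of the 10 (*Sox5*, *Sox6*, *Sox13*, *Sox8*, *Sox9* and *Sox10*), a share close to the 52.4% of all compared genes (7437) for which this was so. Thus non-overlap of the intervals was common in this pair of libraries and does not set the Sox genes apart. The ratios below 0 numbered 7 and those above 0 numbered 3. When all rows of each library, named and unnamed, were rescaled to the same sum, the median of all genes moved by −0.68 and the split of changed genes went to 7182 lower and 485 higher. Rows without a gene name held 70.7% of all FPKM of the control library and 80.7% of all FPKM of the mutant library. Under that scaling *Sox5*, *Sox13* and *Sox9* had ratios below 0 (−0.43, −0.37 and −0.32), so the directions given for these genes hold for the deposited scale.

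**Figure D1:**
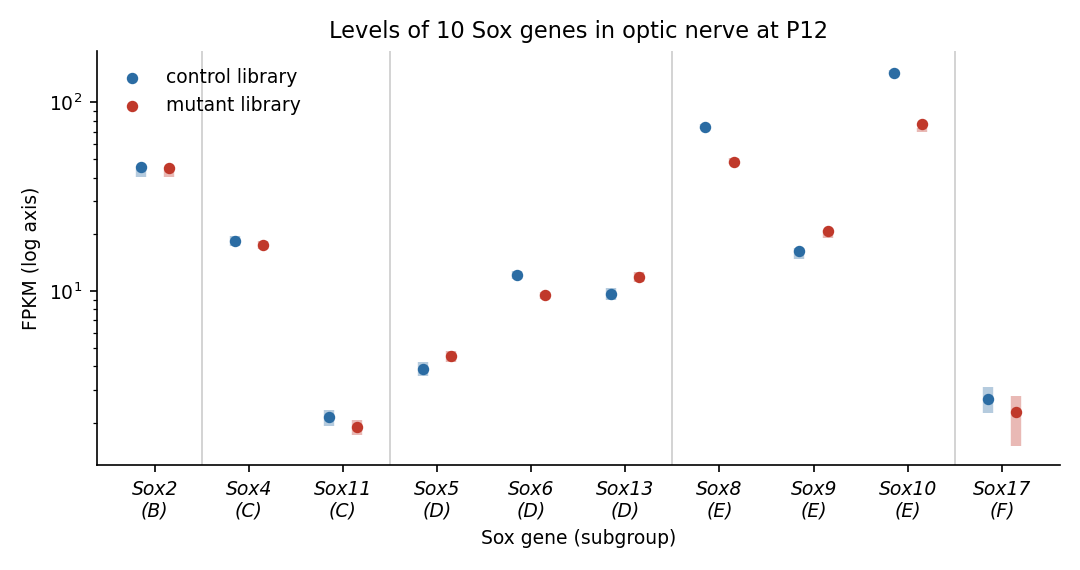
FPKM on a log axis of the 10 Sox genes, ordered by subgroup, in the control library (blue) and the mutant library (red), with shaded bars for the Cufflinks interval within each library. *Sox10* (144 and 76.6 FPKM) and *Sox8* (73.7 and 48.5 FPKM) are the highest pair in both libraries and the only genes past the 1.5-fold cutoff.

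The order of the levels ran from *Sox10* through *Sox8*, *Sox2*, *Sox4*, *Sox9*, *Sox6*, *Sox13*, *Sox5* and *Sox17* to *Sox11* in the control. In the mutant, *Sox9* stood above *Sox4* and *Sox13* above *Sox6*, and the rest of the order was unchanged. *Sox10* was higher than 96.3% of all compared genes in the control against 92.7% in the mutant, whereas *Sox11* was higher than 14.3% and 10.2%. Neighbours in the order had intervals that did not overlap within a library, except *Sox17* and *Sox11*, which overlapped in both. *Sox8* exceeded *Sox2* by 1.63-fold in the control and by only 1.08-fold in the mutant.

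SoxE genes carried most of the Sox expression of the nerve. *Sox8*, *Sox9* and *Sox10* together summed to 234 FPKM in the control against 146 FPKM in the mutant, a fall of 1.60-fold (log2 ratio −0.68). Their share of the FPKM of all 10 genes was 71.3% in the control against 61.1% in the mutant. The 3 genes did not move alike, since *Sox10* and *Sox8* fell and the value of *Sox9* was higher in the mutant.

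*Sox10*, the SoxE factor that drives OL differentiation, was at 144 FPKM (interval 142 to 149) in the control and at 76.6 FPKM (interval 69.5 to 73.6) in the mutant. The intervals were far apart, and *Sox10* fell by 1.88-fold (log2 ratio −0.91). The files place it at chr15:78985237-78995016 on mm9. Only 4.37% of all compared genes had a lower log2 ratio, and 5.16% did among the 1123 genes whose mean level was within 2-fold of its own. In bulk tissue, fewer cells of a type and less RNA per cell cannot be told apart, and this holds for every gene below.

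*Sox8*, the closest relative of *Sox10* in the OL lineage, was at 73.7 FPKM (interval 71.9 to 76.9) in the control and at 48.5 FPKM (interval 47.3 to 50.6) in the mutant. The intervals did not overlap, and the fall of 1.52-fold (log2 ratio −0.60) was only just past the cutoff. Lower ratios were found for 8.21% of all compared genes, and for 8.03% of the 2178 genes with a mean level within 2-fold. *Sox8* lies at chr17:25702838-25707631 on mm9.

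*Sox9*, which directs progenitors to a glial fate and persists in astrocytes, was at 16.3 FPKM (interval 14.9 to 16.9) in the control and at 20.7 FPKM (interval 19.1 to 21.2) in the mutant. The mutant interval lay above that of the control, but the log2 ratio of 0.34 (1.27-fold) stayed short of the cutoff. A ratio lower than that of *Sox9* was found in 74.0% of all compared genes. The files place *Sox9* at chr11:112643524-112649071 on mm9.

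Ratios of genes within a library do not depend on how the libraries were scaled. *Sox10* exceeded *Sox9* by 8.83-fold (range from the interval bounds 8.44 to 10.03) in the control and by 3.70-fold (3.28 to 3.85) in the mutant. This ratio was 2.39-fold lower in the mutant, a larger difference than that of *Sox10* alone. *Sox10* to *Sox8* was 1.95 (1.85 to 2.08) in the control against 1.58 (1.37 to 1.56) in the mutant, so the balance of these OL factors moved less. Within the SoxE sum, *Sox9* made up 6.97% in the control against 14.2% in the mutant, *Sox10* 61.5% and 52.5%, and *Sox8* 31.5% and 33.3%.

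**Figure D2:**
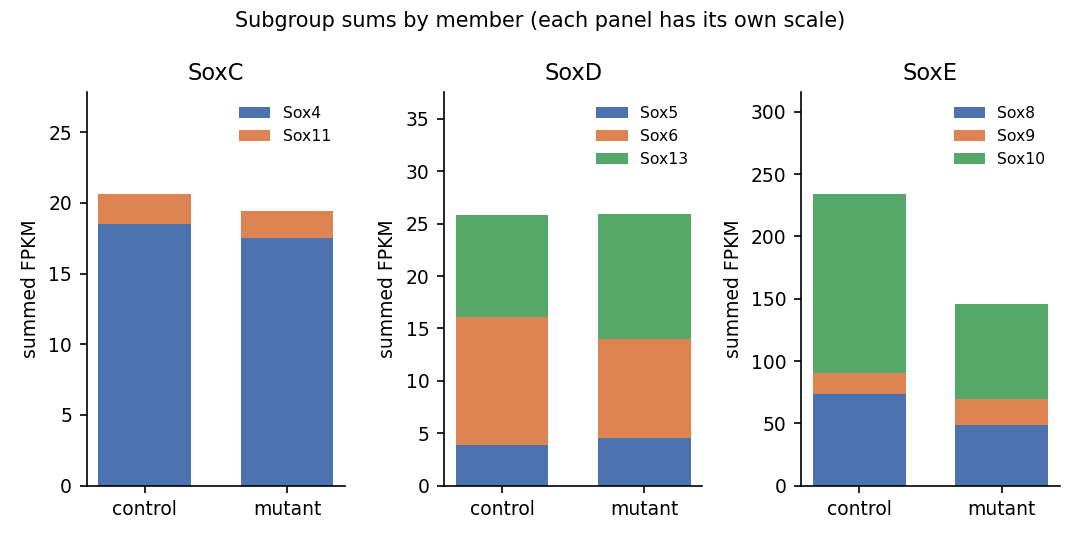
Summed FPKM of the SoxC, SoxD and SoxE genes in the control and mutant libraries as stacked bars, with 1 colour per gene and a separate linear scale from 0 in each panel. The SoxE sum is 234 FPKM in the control against 146 FPKM in the mutant, whereas the SoxD sum is 25.8 and 25.9 FPKM with a different make-up.

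Markers of OL stages and of astrocytes were set beside the SoxE values. All of 12 mature OL markers had ratios below 0 and 8 of them fell past the cutoff (median log2 ratio −0.94, sum 32342 FPKM in the control against 18534 FPKM in the mutant), the largest fall being that of *Mobp*, a myelin protein gene (2959 and 719 FPKM, log2 ratio −2.04). Of 6 OL lineage transcription factor genes, *Olig1* and *St18* fell and none rose (median −0.56), with *Olig1* at 273 FPKM in the control against 115 FPKM in the mutant (log2 ratio −1.24). Of 8 precursor markers, *Vcan*, *Gpr17* and *Neu4* fell and none rose (median −0.27), from a sum of 466 FPKM in the control to 375 FPKM in the mutant. Astrocyte markers had a median of 0.27 with 2 of 10 past the cutoff, *Gja1* and *Gjb6*, both higher (sum 5512 FPKM in the control against 6539 FPKM in the mutant). None of the markers on these lists was at 0 in either library. The part of cell composition in the values of *Sox10*, *Sox8* and *Sox9* was not tested.

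The levels of SoxE genes were also set against such markers within each library. The ratio of *Sox10* to *Olig2*, a factor of the whole OL lineage, was 1.51 (1.43 to 1.60) in the control against 1.18 (1.09 to 1.24) in the mutant, a log2 ratio of −0.35. *Sox10* was thus lower in the mutant also relative to *Olig2*. *Olig2* itself was at 95.6 FPKM in the control against 64.8 FPKM in the mutant, where the value lay above its own interval (59.3 to 63.8). *Olig1*, however, had a lower log2 ratio (−1.24) than *Sox10* (−0.91), and mature OL markers had a median of −0.94. The direction of *Sox10* relative to OL genes therefore depended on the gene used. The ratio of *Sox9* to *Aqp4*, an astrocyte water channel gene, was 0.0897 (0.0795 to 0.0931) in the control against 0.140 (0.125 to 0.143) in the mutant, a log2 ratio of 0.64. Set against *Slc1a3*, an astrocyte glutamate transporter gene, it was 0.0565 (0.0502 to 0.0585) and 0.0669 (0.0601 to 0.0683), a log2 ratio of 0.24. *Aqp4* was the only one of the 10 astrocyte markers with a log2 ratio below 0 (−0.29), and 4 of the 10 (*Gja1*, *Gjb6*, *Aldoc* and *Fgfr3*) had a higher log2 ratio than *Sox9*, so that the direction of *Sox9* relative to astrocyte genes depended on the gene used.

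**Figure D3:**
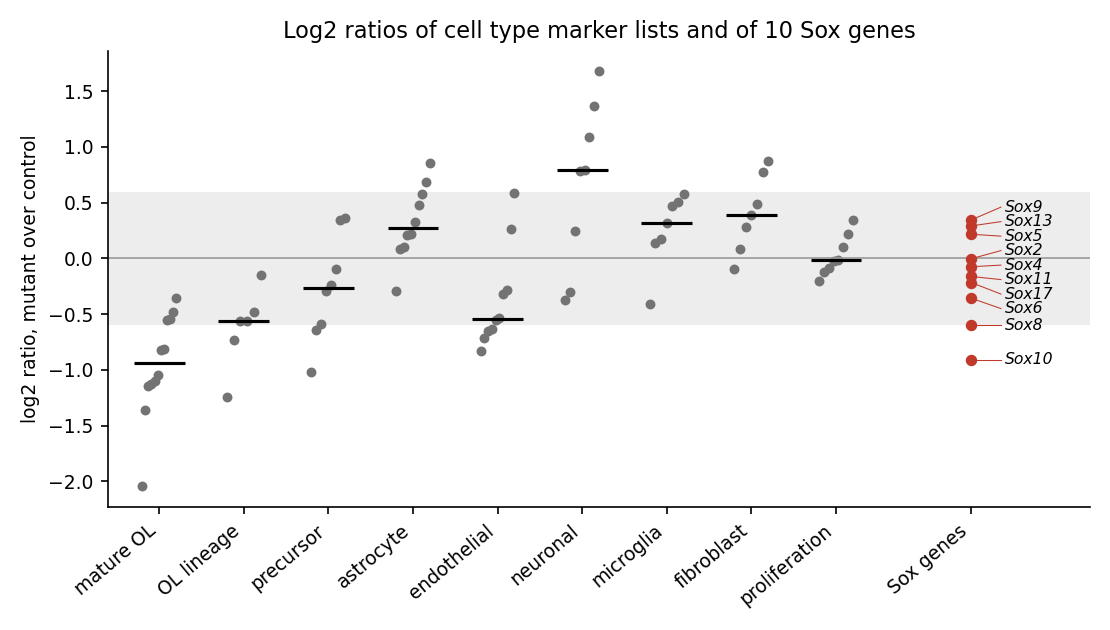
Log2 ratios of mutant over control FPKM for the genes of 9 marker lists (grey points, black bar at the list median) and for the 10 Sox genes (red points), with the grey band marking less than 1.5-fold. Mature OL markers have a median of −0.94 and neuronal markers of 0.79, and *Sox10* (−0.91) and *Sox8* (−0.60) lie below the band.

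Genes linked to Sox10 in oligodendrocytes were read as a list of 13, chosen as known or proposed targets and partners. Of these, 5 fell, *Myrf*, *Erbb3* and *Dusp15* among them, *Nfatc4* rose, and 7 stayed within the cutoff, with a median log2 ratio of −0.30. *Nfatc4*, a calcineurin-dependent factor that cooperates with Sox10, rose from 4.55 FPKM to 7.07 FPKM (log2 ratio 0.62). *Mbp*, the highest of the list, had a log2 ratio of −0.54 and thus did not pass the cutoff. *Myrf*, the myelin regulatory factor induced by Sox10, fell from 106.6 FPKM to 70.2 FPKM, with the same log2 ratio as *Sox8* (−0.60). Of the list of 5 genes linked to Sox9 in glia, none passed the cutoff in either direction (median 0.08). The highest of them, *Mmd2*, was at 194 FPKM and 185 FPKM, and *Nfib*, which encodes a nuclear factor of gliogenesis, had the largest positive ratio (13.9 FPKM and 18.0 FPKM, log2 ratio 0.37).

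SoxD genes had nearly the same sum in both libraries, 25.8 FPKM in the control against 25.9 FPKM in the mutant (log2 ratio 0.01), but this sum hid differences of opposite sign. *Sox6* was lower in the mutant while *Sox5* and *Sox13* were higher, each with intervals that did not overlap and each short of 1.5-fold. The share of *Sox6* in the subgroup was 47.3% in the control against 36.7% in the mutant, and that of *Sox13* was 37.6% and 45.8%. *Sox6* was the highest of the subgroup in the control, and *Sox13* was the highest in the mutant.

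*Sox6*, which keeps OL precursors from differentiating too early, was at 12.2 FPKM (interval 11.7 to 12.8) in the control and at 9.50 FPKM (interval 9.14 to 9.86) in the mutant. Its log2 ratio of −0.36 (1.28-fold) was the lowest after those of *Sox10* and *Sox8*, and 16.6% of all compared genes had a lower one. *Sox6* is the gene whose windows held the TCF letters shown above, and it lies at chr7:122614386-123182412 on mm9. *Sox5*, its partner in the same function, was at 3.89 FPKM (interval 3.56 to 4.21) and at 4.53 FPKM (interval 4.24 to 4.83), a log2 ratio of 0.22. *Sox5* lies at chr6:143776945-144158088. *Sox13*, the remaining SoxD gene, was at 9.69 FPKM (interval 8.94 to 10.4) and at 11.9 FPKM (interval 11.2 to 12.6), a log2 ratio of 0.29. *Sox13* lies at chr1:135278877-135320997, and a lower ratio was found in 70.2% of all compared genes.

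The sum of *Sox5* and *Sox6* divided by *Sox10*, the factor that they restrain, was 0.112 (0.102 to 0.120) in the control against 0.183 (0.182 to 0.211) in the mutant. The ratio was thus 1.64-fold higher in the mutant (log2 ratio 0.71). *Sox10* alone was 1.88-fold lower there, so the sum of *Sox5* and *Sox6*, which leaves out *Sox13*, was itself lower in the mutant. Precursor markers, with which *Sox5* and *Sox6* are usually expressed, had a median log2 ratio of −0.27 and ran from −1.02 for *Neu4*, which encodes a sialidase (21.6 and 10.6 FPKM), to 0.36 for *Ptprz1*, a receptor phosphatase gene (57.8 and 74.1 FPKM). The part of precursor number in the SoxD values was not tested.

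Unnamed rows, which come from transcripts assembled without a gene name, lay inside the spans of some Sox genes and were not added to them. *Sox6* held 5 such rows in the control, from 0.848 to 1.57 FPKM, and 2 in the mutant at other positions, of 1.78 FPKM and 3.14 FPKM. *Sox13* held 1 row of 5.97 FPKM in the control against 1 of 4.17 FPKM in the mutant, and *Sox17* held 1 of 2.02 FPKM and 1 of 1.09 FPKM. No unnamed row lay inside the other 7 genes. Fragments assigned to these rows do not count in the values of *Sox6*, *Sox13* and *Sox17*. Whether they come from transcripts of these genes, and their part in the log2 ratios, was not tested.

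*Sox2*, a SoxB factor of neural stem cells that is also found in glial progenitors and astrocytes, was the third highest of the 10 genes. It was at 45.3 FPKM (interval 40.2 to 44.6) in the control and at 45.1 FPKM (interval 40.3 to 43.8) in the mutant. The libraries were level for *Sox2*, with overlapping intervals and a log2 ratio of 0.00, and 45.1% of all compared genes had a lower ratio. Its share of the FPKM of the 10 genes was 13.8% in the control against 18.9% in the mutant. *Sox2* lies at chr3:34548927-34551382 on mm9, inside the span of *Sox2ot*, a long non-coding transcript read here in a merged row with a microRNA gene. That row was at 79.4 FPKM (interval 77.6 to 83.0) in the control and at 46.8 FPKM in the mutant, where its interval ran from 45.7 to 136. Its log2 ratio of −0.76 passed the cutoff although the intervals overlapped. Strand-specific counting was not stated, so reads from *Sox2* and from *Sox2ot* cannot be told apart with certainty.

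SoxC genes are strong activators in immature neurons and progenitors. *Sox4* was at 18.5 FPKM (interval 17.4 to 19.6) in the control and at 17.5 FPKM (interval 16.7 to 18.5) in the mutant, a log2 ratio of −0.08. *Sox11* was at 2.15 FPKM (interval 1.94 to 2.36) and at 1.91 FPKM (interval 1.74 to 2.07), a log2 ratio of −0.16. The intervals of both genes overlapped between the libraries, although the *Sox11* value of each library lay outside the interval of the other. Overlap of intervals does not show that the libraries were equal. *Sox4* made up 89.6% of the SoxC sum in the control against 90.2% in the mutant, and the sum was 20.6 FPKM and 19.4 FPKM. The ratio of *Sox4* to *Sox11* was 8.61 (7.38 to 10.1) and 9.19 (8.06 to 10.6), again with overlapping ranges. The files place *Sox4* at chr13:29040790-29045917 and *Sox11* at chr12:28019133-28027583 on mm9.

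Of 5 genes linked to SoxC factors, *Tubb3* and *Tead2* rose and *Hes5* fell, with a median of −0.22. *Tubb3*, which encodes neuronal β-tubulin, rose from 12.7 FPKM to 22.0 FPKM (log2 ratio 0.79), and *Tead2*, a transcription factor gene of the Hippo pathway, from 8.90 FPKM to 14.4 FPKM (0.69). *Hes5*, a Notch effector gene that holds back OL differentiation, fell from 3.75 FPKM (interval 1.87 to 5.63) to 2.13 FPKM (interval 1.67 to 2.58), a log2 ratio of −0.79, although these intervals overlapped. *Stmn1*, the highest gene of the list, was at 166 FPKM and 142 FPKM (−0.22). The list thus went both ways, while the intervals of *Sox4* and of *Sox11* overlapped between the libraries. Neuronal markers had a median of 0.79, and 5 of 8 (*Tubb3*, *Stmn2*, *Snap25*, *Syt1* and *Rbfox3*) rose while none fell, from a sum of 47.9 FPKM in the control to 74.2 FPKM in the mutant. The largest rise was that of *Syt1*, a synaptic vesicle gene, from 1.07 FPKM to 3.64 FPKM (1.68). None of these neuronal markers was at 0, and their part in the SoxC values was not tested. Proliferation genes, 8 in number, had a median of −0.02 with none past the cutoff in either direction.

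*Sox17*, the SoxF gene of arterial endothelium, was low in both libraries, at 2.69 FPKM (interval 2.25 to 3.12) in the control and at 2.30 FPKM (interval 1.5 to 2.78) in the mutant. The intervals overlapped widely and the log2 ratio was −0.22, with the value of each library inside the interval of the other. *Sox17* lies at chr1:4481009-4487435 on mm9. Of 10 endothelial markers 8 had ratios below 0 (median −0.54). *Tie1*, *Esam*, *Ly6c1* (in a merged row in the control) and *Slco1c1* fell and *Cdh5* rose, with a sum over the list of 202 FPKM in the control against 156 FPKM in the mutant. None of the 10 was at 0. The ratio of *Sox17* to *Pecam1*, an endothelial adhesion gene, was 0.201 (0.158 to 0.251) in the control against 0.210 (0.129 to 0.271) in the mutant, whereas its ratio to *Cdh5*, encoding VE-cadherin, was 0.128 (0.102 to 0.157) and 0.0727 (0.0456 to 0.0909). The level of *Sox17* relative to endothelial genes thus depended on which gene was used. The part of vessel content in the *Sox17* value was not tested.

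The 5 endothelial genes linked to SoxF factors also went in different directions, with a median of −0.53. *Dll4*, the arterial Notch ligand gene, fell from 2.96 FPKM to 1.49 FPKM (log2 ratio −0.94). *Notch4* rose from 3.10 FPKM to 9.64 FPKM (1.61), but its row was merged with *Gpsm3* in the mutant only, so this value mixes different rows. *Cdh5* rose from 20.9 FPKM to 31.6 FPKM (0.59), and *Cldn5*, a tight junction gene and the highest of the list, was at 64.1 FPKM and 43.7 FPKM (−0.55).

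Other Sox genes gave a background for the 10. Of 10 further genes of the family found in the files, 6 passed the filter, with a median log2 ratio of 0.03. *Sox1*, a SoxB relative of *Sox2* in neural progenitors, rose from 2.03 FPKM (interval 1.71 to 2.33) to 4.36 FPKM (interval 3.88 to 4.77), by 2.10-fold (log2 ratio 1.07), and it overlaps another annotated row. *Sox21*, a SoxB gene with repressor activity, was at 3.15 FPKM and 4.52 FPKM (log2 ratio 0.51), and *Sox3*, a SoxB activator gene, at 4.40 FPKM and 4.67 FPKM (0.08). Low SoxB genes thus had ratios above 0, while the much higher *Sox2* was level. *Sox7*, a SoxF gene of endothelium, was at 2.47 FPKM and 1.71 FPKM (−0.51), and *Sox18*, its relative in vessels and lymphatics, at 6.22 FPKM and 6.09 FPKM (−0.03). *Sox12*, the remaining SoxC gene, was at 9.79 FPKM and 9.07 FPKM (−0.11). *Sry*, *Sox14*, *Sox15* and *Sox30* were under 1 FPKM in both libraries, the highest value being 0.126 FPKM.

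*Tcf7l2* itself was at 17.8 FPKM in the control and at 14.6 FPKM in the mutant (log2 ratio −0.28), close to *Sox4* in level. Of the 4 TCF/LEF genes none passed the cutoff in either direction, and *Tcf7l1*, a relative that mostly represses Wnt targets, was at 10.05 FPKM and 14.9 FPKM (0.57).

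Markers of the remaining cell types of the nerve were read beside the Sox genes that these cells also express. Microglia markers, 7 in number, had a median of 0.32 with none past the cutoff in either direction (sum 235 FPKM in the control against 312 FPKM in the mutant). Fibroblast markers had a median of 0.39 and 2 of 7 rose, *Dcn* and *Igf2* (sum 1768 and 2667 FPKM), with *Igf2* at 686 FPKM and 1258 FPKM. *Sox10* is also a gene of Schwann cells and melanocytes. Of 7 Schwann cell markers 4 passed the filter, of which 1 fell and none rose, with a median of 0.15. Of 6 melanocyte markers 3 passed the filter, *Dct* rose from 0.965 FPKM to 2.16 FPKM (1.09), and *Pmel* was listed at 0 in both libraries. *Foxd3*, a Schwann cell marker, was listed at 0.0334 FPKM in the control and at 0 in the mutant. *Mlana*, a melanocyte marker, was listed at 0 in the control and at 0.0974 FPKM in the mutant. Neither gene passed the filter, and the intervals of both values above 0 reached down to 0. The part of Schwann cells and melanocytes in the difference of *Sox10* was not tested.

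**Figure D4:**
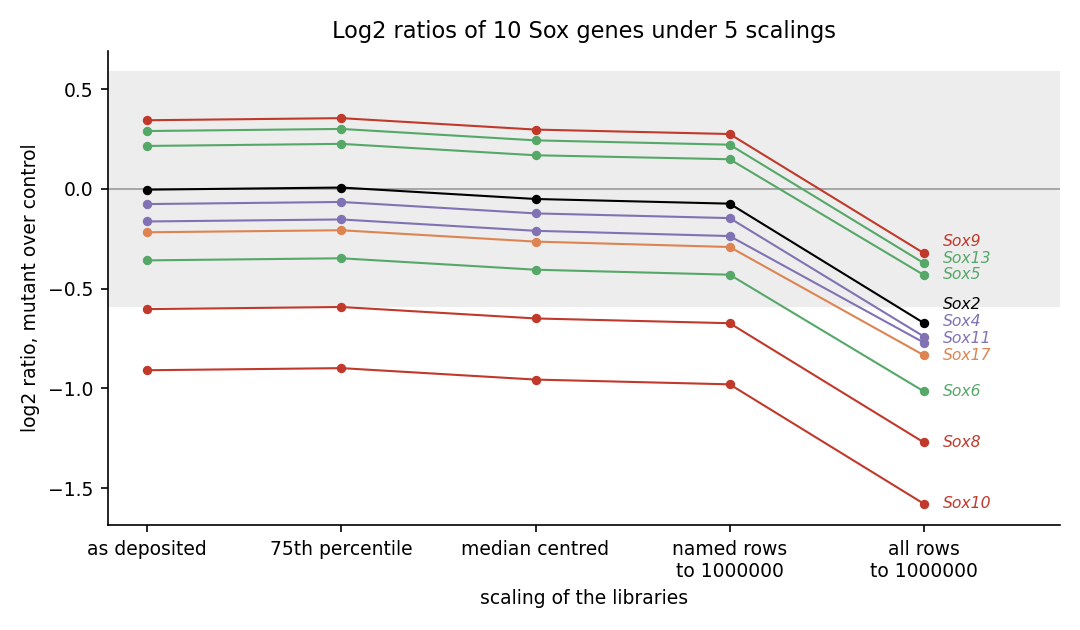
Log2 ratios of mutant over control FPKM of the 10 Sox genes (1 line each) on the deposited scale and under 4 other scalings, with the grey band marking less than 1.5-fold. *Sox10* and *Sox8* stay below the band under all 5 scalings, and every gene is below 0 when all rows are rescaled to 1000000, where *Sox9* is at −0.32.

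As the plot of the scalings shows, 3 of the 4 other scalings left the Sox genes nearly where they were. Over all 9 alternatives run for single genes, *Sox10* ranged from −1.58 to −0.90 and *Sox8* from −1.27 to −0.59. *Sox10* and *Sox8* had the lowest ratios of the 10 genes and *Sox9* the highest under each of the 5 scalings, since a scaling moves all ratios of a library pair by nearly the same amount.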

How the data were processed

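RNA-seq libraries were made from total RNA of optic nerves, 1 per genotype. The authors mapped the reads with TopHat and computed FPKM with Cufflinks, and the submitters' processing notes name mm9 as the build. Versions were not given in the sources used here. The deposited tables hold the FPKM of each row, its Cufflinks interval and a status. Comma-merged names were split and rows of a symbol summed. The log2 ratio used a pseudocount of 0.1, and genes with status OK in both libraries and at least 1 FPKM in at least 1 library were compared at a cutoff of 1.5-fold. With 1 library per genotype no gene was tested. Depth was read from interval bounds of short unnamed rows, which are whole multiples of the value of 1 fragment. Intervals cover the estimation error of 1 library only. Subgroup sums, within-library ratios and lists were computed from the same FPKM, and ranges of ratios combine opposite interval bounds. The members and lists were chosen with earlier results of these data known. Named were the 10 genes, the other Sox genes over 1 FPKM, *Tcf7l2*, genes used in ratios and, from each list, the highest gene and the largest fall and rise, and *Myrf*, *Aldoc*, *Fgfr3*, *Foxd3*, *Mlana* and the members counted as past the cutoff were named after their values were seen. A few genes covered by this rule, and a ratio that uses 1 of them, are not reported here. Promoter sequences are from RefSeq on GRCm38.p6, and exons there are from GENCODE M21. Coordinates of the 2 builds were not joined. The counting was tested on simulated data in which all planted changes were well past the cutoff. That test does not cover genes close to the cutoff, such as *Sox8*. Alternatives covered the pseudocount, scaling, filter, cutoff, row handling and interval midpoints. Python 3.11.15, numpy 2.4.6, pandas 2.3.3 and matplotlib 3.10.9 were used.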

Additional observations from a re-analysis of the deposited data

Results flagged for a closer look

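Unnamed rows lay inside the spans of *Sox6* and *Sox13* in the mutant library at positions where the control library had no unnamed row. Within *Sox6* they were at 3.14 FPKM (chr7:123176985-123177347 on mm9, 363 bases) and at 1.78 FPKM (chr7:123177647-123178103, 457 bases), both in the stretch next to the end of the gene with the higher coordinates. Within *Sox13* the row was at 4.17 FPKM (chr1:135280506-135281027, 522 bases). The FPKM of the longer *Sox6* row lay inside its own Cufflinks interval (0.603 to 1.92), whereas those of the shorter *Sox6* row (0.897 to 2.48) and of the *Sox13* row (1.97 to 3.89) lay above theirs. The control library held unnamed rows at other positions of both genes, and the rows were not used in the values of *Sox6* and *Sox13*.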

How the results depend on the processing

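Of 175 alternative values, 159 stayed within the width of the Cufflinks intervals or within 1.5 times the count, and 16 moved further. The 159 include alternatives that changed only how the rows of a symbol were handled. Those gave the main values, since each of the 10 Sox genes had 1 row of its own. The SoxB and SoxF sums repeat *Sox2* and *Sox17*, so the 159 are not separate checks. Rescaling all rows to a sum of 1000000 gave log2 ratios of −0.67 for SoxB, −0.75 for SoxC, −0.66 for SoxD and −1.35 for SoxE. Under it 7 of the 10 Sox genes were lower past the cutoff, where 54.4% of all genes were lower. A fold change above 2 left 0 of the 10 Sox genes lower, with 522 genes lower and 975 higher in all. The counts of all genes were 7182 lower and 485 higher with all rows rescaled. The midpoints of the intervals put *Sox10* at −1.03. None of the 10 Sox genes was higher past the cutoff under any alternative. *Sox1*, which is not among these 10, was higher by 2.10-fold on the deposited scale. *Sox2* turned to 0.01 when scaled to the 75th percentile, and the SoxD sum turned to −0.04 when centred on the median of all genes and to −0.06 when named rows were rescaled. No paired analysis was possible because there was 1 library per genotype. At the depths of these libraries *Sox11* and *Sox17*, at about 2 FPKM, carry the widest intervals for their level.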
